A study of Homo sapiens with 6 samples.

Results

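A set of 10 cell-surface genes that stimulate or restrain immune cells were read out in human glioblastoma cells exposed to tumor necrosis factor-α (TNF-α). They were CD83, CD69, CD274, PDCD1LG2, CD276, CD80, ICOSLG, CD47, PVR and NT5E. They were chosen by gene name, and all 10 were found among the 58735 genes of the deposited expression table. RNA-seq of poly(A)-selected RNA covered 6 cultures of U251, an established human glioblastoma line. The NC group (n = 3) received sterile deionized water and the TNF-α group (n = 3) received recombinant human TNF-α at 10 ng/mL, both for 24 h, and the submitters describe the 3 cultures of each group as biological replicates. U251 is a single cell line grown without immune cells, so that the immune-cell side of each pair was not in the dish.

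Immune checkpoints are pairs of surface proteins through which a cell tells a lymphocyte or a phagocyte to act or to stand down. Tumor cells can carry the ligand side, of which PD-L1 is the best known, and inflammatory cytokines are known to raise several of these ligands in many cell types. TNF-α binds its receptors and activates NF-κB, a transcription factor that enters the nucleus and binds so-called kB sites in DNA.

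The promoter stretches of CD83 and CD274 are shown because they were the only ones, among the 10 windows available for 8 of the genes, that held a match to any of the motifs looked for in the 250 bases before the transcript start. No window was available for CD69 and PDCD1LG2. The sequences are from RefSeq on GRCh38.p14, 5′ to 3′ on the plus strand, with the matching bases in capitals. The CD83 stretch is chr6:14117687-14117716 and the CD274 stretch is chr9:5450292-5450502.
CD83: ctgcccgccGGGGAATCCCCCgggctggcg
CD274: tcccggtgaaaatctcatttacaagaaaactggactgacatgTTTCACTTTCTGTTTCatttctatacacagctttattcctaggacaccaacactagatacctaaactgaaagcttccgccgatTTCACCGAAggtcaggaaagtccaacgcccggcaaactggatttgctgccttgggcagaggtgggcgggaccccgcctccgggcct

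In CD83 the capitals mark 3 overlapping matches to the kB consensus on either strand, beginning 76, 75 and 74 bases before a RefSeq transcript start and lying inside an annotated exon of the gene in GENCODE 29. The other CD83 window, chr6:14117006-14117255, ends directly before the gene start in GENCODE 29 and held no match to the kB consensus. A match to this consensus was present in 5.21% of 35116 RefSeq promoters of the same length. That share was not matched for GC content, which was 83.2% in the CD83 window with the matches and 34.8% in the other. In CD274 the first run of capitals holds 2 overlapping matches on the minus strand to an ISRE-like motif (an interferon-stimulated response element, searched as GAAA repeated after 2 bases of any kind), beginning 208 and 202 bases before the start. The second run is 1 match to TTCNNNGAA, the letters of a gamma-activated site, 125 bases before the start. These 2 motifs were present in 3.02% and 6.57% of all promoters. The AP-1 letters TGANTCA, searched on both strands like the others, were found in none of the 8 genes and in 6.57% of all promoters. A match of letters does not show that a factor binds there.

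Each library held between 31992167 and 37897044 reads in genes, and levels are given as the deposited FPKM, fragments per kilobase of gene relative to a scaled library size. TNF-α replicates 2 and 3 stood apart from the other 4 libraries. Their share of reads in genes over 8 kb was 16.6% and 17.9%, compared with 28.8% to 29.1% elsewhere, and 3592 and 2663 genes differed from the NC mean by at least 1 on the log2 scale, against 152 in TNF-α replicate 1. The library total used for their FPKM was 0.693 and 0.759 of their reads in genes, compared with 0.925 to 0.959 in the other 4, so that each read counts for more in them. For this reason the fold changes of the 7 tested genes of the set, and of some other genes named below, are also given for TNF-α replicate 1 alone, a fit in which the single library is assumed to vary like the NC libraries. The part of this library difference in the results was not tested. Of 8 glioblastoma and astroglia markers 7 were expressed at 1 FPKM or more in at least 3 libraries, led by VIM (325 to 974 FPKM) and CD44 (133 to 141 FPKM), while S100B reached at most 0.168 FPKM. GFAP, the astrocyte filament gene, fell from 8.24 ± 1.19 to 2.19 ± 0.537 FPKM in TNF-α (log2 fold change -1.54, limma adjusted p = 0.0210, up to 0.166 over the alternatives, so that some lost the call), and in replicate 1 alone the fold change was -1.83 (adjusted p = 0.00158). Of 11 leukocyte markers 6 had 0 reads in every library, among them PTPRC, CD3D and MS4A1, and the summed level of the list was 0.869 to 1.17 FPKM in NC and 0.654 to 1.67 FPKM in TNF-α, most of it CD14. The summed level of 2 endothelial markers was at most 0.342 FPKM and that of 2 neuronal markers at most 1.18 FPKM.

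CD83 rose in the TNF-α group, and it was the 1 gene of the 10 that passed the test, an adjusted p under 0.05 by limma over all 12136 genes that reached 1 FPKM in at least 3 libraries. Of all tested genes 1.01% passed in either direction and 0.717% passed as higher. The other 6 tested genes did not pass. CD274, PDCD1LG2, CD276, CD47 and PVR were higher in every TNF-α library than in every NC library, and NT5E overlapped between the groups. CD69, CD80 and ICOSLG stayed below the filter with 8 reads or fewer in each library and were not tested. Counting CD83, 6 of the 7 tested genes (85.7%) were higher without overlap in FPKM, a pattern shown by 14.8% of all tested genes. The count rests on the deposited scaling, in which each read of TNF-α replicates 2 and 3 counts for more. Relative to the reads in genes, the groups would overlap for CD274, PDCD1LG2 and PVR. Of the 7, 5 had an unadjusted p under 0.05, all of them higher, against 24.2% of all tested genes in either direction and 12.3% as higher. The genes were chosen with earlier results of these data known, so that these shares are not an independent comparison. The median log2 fold change, on the log2(FPKM + 1) scale used for every fold change here, was 0.54 over the 7 genes and 0.04 over all tested genes. In RNA from whole cultures, more cells with a transcript and more transcript per cell cannot be told apart.

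**Figure D1:**
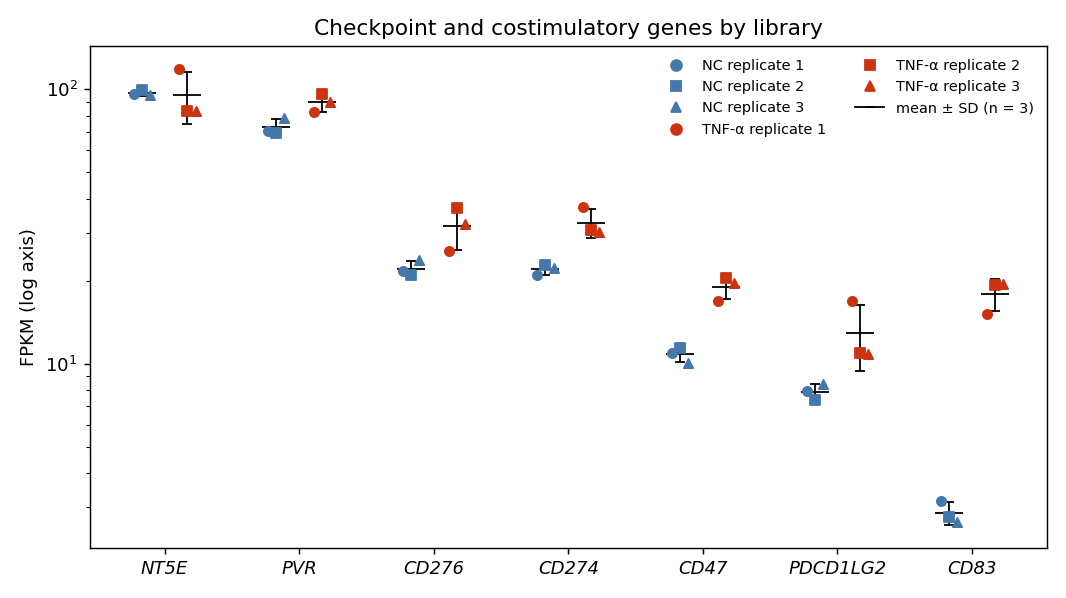
Level of the 7 tested genes in FPKM on a log axis, by library, with NC in blue, TNF-α in red and a symbol for each replicate number, and bars for the group mean ± SD (n = 3). All red symbols of CD83 lie between 15.2 and 19.5 FPKM, far above the blue ones at 2.65 to 3.17, whereas those of NT5E lie on both sides of the blue ones.

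CD83 marks mature dendritic cells and activated lymphocytes and belongs to the immunoglobulin superfamily. The gene (ENSG00000112149, chr6:14117256-14136918, plus strand) had 3.17, 2.78 and 2.65 FPKM in NC replicates 1 to 3, from 288, 229 and 214 reads. It had 15.2, 19.4 and 19.5 FPKM in TNF-α replicates 1 to 3, from 1232, 1262 and 1190 reads. Every TNF-α library was thus at least several times above every NC library, replicate 1 included. The group means were 2.86 ± 0.271 and 18.03 ± 2.41 FPKM (SD, n = 3), a ratio of 6.29. The log2 fold change was 2.29 (SE 0.15, 95% interval 1.94 to 2.65, limma adjusted p = 0.00303), in place 28 from the top among the tested genes. In TNF-α replicate 1 alone it was 2.07 (adjusted p = 0.000272, in a fit in which 6.03% of all genes passed and 3.70% passed as higher). The adjusted p moved just past the threshold, to 0.0503, when NC replicate 2 was left out, with a fold change of 2.28. Over the other 21 alternatives CD83 stayed past it, at 2.05 to 2.61.

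The 3 tested genes whose profile over the 6 libraries lay nearest to that of CD83 were HBEGF, PTX3 and CTSS, by the Euclidean distance of log2(FPKM + 1) from the NC mean. The distances were 0.277, 0.358 and 0.389, against a median of 3.93 over all tested genes. The distance takes in the TNF-α libraries, so that the nearest genes have a similar fold change by construction. HBEGF encodes a membrane-anchored growth factor of the EGF family and went from 7.45 ± 0.526 to 40.0 ± 6.69 FPKM (log2 fold change 2.27, adjusted p = 0.00407). PTX3, a secreted pattern-recognition protein, went from 6.54 ± 0.340 to 41.7 ± 7.29 FPKM (2.49, adjusted p = 0.00316). CTSS, the lysosomal protease that trims the MHC class II invariant chain, went from 0.425 ± 0.0573 to 5.78 ± 0.591 FPKM (2.25, adjusted p = 0.00134). At so low an NC level this scale understates the change, so that CTSS rose by a larger ratio of FPKM than CD83. The MHC class II genes that accompany CD83 on dendritic cells were near absent. None of the 8 genes of that list reached the filter, HLA-DRA and HLA-DRB1 had 0 reads in every library, and CD74, the invariant chain, had at most 0.315 FPKM.

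CD69, the early activation antigen of lymphocytes, was not detectable beyond a few reads. The gene (ENSG00000110848, chr12:9752486-9760901, minus strand) had 0, 5 and 2 reads in NC and 5, 0 and 2 reads in TNF-α, at most 0.0549 FPKM. A level of 3 reads, the limit that a count of 0 allows for counting error only, corresponded to 0.0293 to 0.0436 FPKM depending on the library. CD69 holds the lipid receptor S1PR1 inside lymphocytes. S1PR1 itself was expressed at 28.7, 26.4 and 26.5 FPKM in NC and 35.2, 18.5 and 23.2 FPKM in TNF-α, with overlapping groups (log2 fold change -0.13, adjusted p = 0.679). LGALS1, a galectin and the most abundant gene of the CD69 partner list, had 516, 459 and 505 FPKM in NC and 506, 2345 and 1793 FPKM in TNF-α. TNF-α replicates 2 and 3, the libraries that stood apart, held the high values of LGALS1, and it did not pass (1.38, adjusted p = 0.195).

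CD274 encodes PD-L1 and PDCD1LG2 encodes PD-L2, the ligands of the inhibitory T-cell receptor PD-1. CD274 (ENSG00000120217, chr9:5450503-5470566, plus strand) had 21.0, 22.9 and 22.4 FPKM in NC, from 3119, 3087 and 2958 reads, and 37.3, 30.8 and 30.1 FPKM in TNF-α, from 4921, 3276 and 3001 reads. The highest value was that of TNF-α replicate 1, and no TNF-α value fell among the NC values. The means were 22.1 ± 0.987 and 32.7 ± 3.97 FPKM (SD, n = 3), with a log2 fold change of 0.54 (SE 0.14, 95% interval 0.19 to 0.88) that did not pass (adjusted p = 0.182). In TNF-α replicate 1 alone the fold change was 0.73 and passed (adjusted p = 0.00563), and with TNF-α replicates 2 and 3 only it was 0.44 and also passed (adjusted p = 0.000722), in a fit in which 79.4% of all genes passed, 42.6% as higher and 36.8% as lower. With the log2 ratios corrected for GC content and transcript length it was 0.72 and passed (adjusted p = 0.0108, where 2.79% of all genes passed, 1.78% as higher), a call that was lost when the replicate block was added (adjusted p = 0.116), whereas in TPM it was 0.05 (adjusted p = 0.887).

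PDCD1LG2 (ENSG00000197646, chr9:5510570-5571254, plus strand) had 7.93, 7.39 and 8.46 FPKM in NC, from 678, 573 and 643 reads, and 16.9, 10.9 and 10.9 FPKM in TNF-α, from 1287, 669 and 624 reads. Replicate 1 was again the highest TNF-α library, and the groups did not overlap. The means were 7.93 ± 0.538 and 12.9 ± 3.49 FPKM, and the log2 fold change of 0.61 (SE 0.20, 95% interval 0.14 to 1.09) did not pass (adjusted p = 0.195). In replicate 1 alone it was 1.01. With replicates 2 and 3 only it was 0.41 and passed (adjusted p = 0.00148), in the fit in which 79.4% of all genes passed. In TPM the fold change was 0.17 (adjusted p = 0.732). Within a library the level of PDCD1LG2 was 0.378, 0.322 and 0.378 of that of CD274 in NC and 0.454, 0.355 and 0.361 of it in TNF-α. These ratios overlapped between the groups. The receptor PDCD1 had 0 reads in all 6 libraries.

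The starts of the PD-1 ligand genes lie 60.1 kb apart on chromosome 9, and 12 other annotated genes lie within 250 kb of the pair, of which 3 were tested. In TNF-α replicate 1, CD274 and PDCD1LG2 were higher than the NC mean by 0.73 and 1.01 on the log2 scale, the upstream neighbour PLGRKT by 0.45, and the downstream neighbours RIC1 and ERMP1 were lower by a difference of -0.03 and -0.28. In TNF-α replicates 2 and 3 the neighbours differed more than the ligand genes did. PLGRKT was at 1.26 and 1.41, RIC1 at -1.39 and -1.31, and ERMP1 at -1.31 and -1.09, while CD274 was at 0.46 and 0.43 and PDCD1LG2 at 0.42 and 0.41. PLGRKT, RIC1 and ERMP1 had log2 fold changes of 1.04, -0.91 and -0.89 over all 3 libraries and did not pass (adjusted p = 0.172, 0.195 and 0.195).

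**Figure D2:**
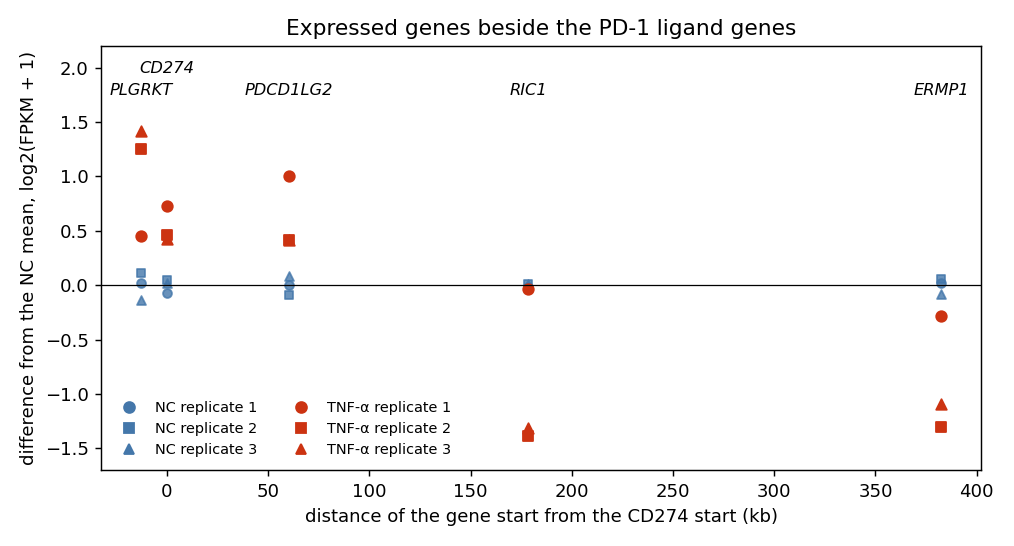
Difference of each library from the NC mean, in log2(FPKM + 1), for CD274, PDCD1LG2 and the 3 other tested genes within 250 kb of them, placed by the distance of their starts from the CD274 start in kb. The red circles of TNF-α replicate 1 are highest at PDCD1LG2 (1.01) and CD274 (0.73), while the red squares and triangles of replicates 2 and 3 spread from 1.41 at PLGRKT to -1.39 at RIC1.

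Of the 7 genes listed for PD-L1 protein stability all were tested and none passed. CMTM6, which protects PD-L1 from lysosomal degradation, had 22.9, 26.9 and 21.7 FPKM in NC and 28.3, 16.7 and 19.0 FPKM in TNF-α (log2 fold change -0.18, adjusted p = 0.527). STT3A, a catalytic subunit of the oligosaccharyltransferase that glycosylates PD-L1, was the most abundant of them at 42.6 to 48.9 FPKM (0.11, adjusted p = 0.531).

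CD276 encodes B7-H3, a B7 family protein that many tumors carry and whose receptor is not settled. The gene (ENSG00000103855, chr15:73683966-73714518, plus strand) had 21.7, 21.0 and 23.8 FPKM in NC and 25.7, 37.0 and 32.4 FPKM in TNF-α, from 3814 to 5322 reads per library. Here replicate 1 was the lowest TNF-α library and lay close to the highest NC library. The means were 22.2 ± 1.48 and 31.7 ± 5.69 FPKM, and the log2 fold change of 0.48 (SE 0.17, 95% interval 0.07 to 0.90) did not pass (adjusted p = 0.195). In replicate 1 alone it was 0.21. With replicates 2 and 3 only it was 0.62 and passed (adjusted p = 0.000432), in the fit in which 79.4% of all genes passed. The fold change was 0.09 with the GC and length correction (transcript GC content 61.0%) and -0.0015 in TPM.

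CD80 and ICOSLG are costimulatory ligands of antigen-presenting cells that bind CD28 or CTLA4 and ICOS. CD80 (ENSG00000121594, chr3:119524293-119559602, minus strand) had 0, 8 and 0 reads in NC and 1, 0 and 0 reads in TNF-α. On the other strand TIMMDC1, at 15.0 to 25.8 FPKM, covers 24.9% of its exonic length, so that the few reads cannot be told apart from reads of that gene where strand was not used in counting. ICOSLG (ENSG00000160223, chr21:44217014-44240966, minus strand) had 0, 0 and 3 reads in NC and 4, 2 and 4 reads in TNF-α. Its level is uncertain, since 45.7% of its longest transcript matches the annotated gene FP565260.3 at up to 100% identity. That gene was itself low, at 0.01855 to 0.184 FPKM. A level of 3 reads corresponded to 0.0259 to 0.0386 FPKM for CD80 and 0.00889 to 0.0132 FPKM for ICOSLG, and no difference between the groups was detectable at this depth. With every gene above 0 FPKM in any library tested, the adjusted p was 0.946 for CD69, 0.598 for CD80 and 0.621 for ICOSLG.

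Most genes on the list of the wider B7 and CD28 family were low or silent. Of its 13 genes 1 was tested, 7 had 3 reads or fewer in every library, and CD86, ICOS, PDCD1, HHLA2 and TMIGD2 had 0 reads in all. TNFRSF14 and CD160 are on the list without being B7 or CD28 proteins, and neither was tested. TNFRSF14 had 27, 13 and 27 reads in NC and 36, 136 and 101 in TNF-α. CD160 had 86, 102 and 98 reads in NC and 62, 6 and 8 in TNF-α. CTLA4 and CD28 had at most 2 and 4 reads. The tested member, NCR3LG1, encodes the B7-H6 ligand of a natural killer cell receptor. It had 3.39, 3.80 and 3.57 FPKM in NC and 5.00, 0.330 and 0.614 FPKM in TNF-α, so that replicate 1 lay above the NC libraries and replicates 2 and 3 far below them (log2 fold change -0.97, adjusted p = 0.228).

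CD47 gives phagocytes a "don't eat me" signal through SIRPA. The gene (ENSG00000196776, chr3:108043094-108091862, minus strand) had 11.0, 11.4 and 10.1 FPKM in NC, from 3263, 3079 and 2662 reads, and 16.9, 20.6 and 19.8 FPKM in TNF-α, from 4478, 4382 and 3946 reads. All 3 TNF-α libraries were well above the NC libraries and lay close together. The means were 10.8 ± 0.683 and 19.1 ± 1.90 FPKM, a ratio of 1.76. The log2 fold change of 0.76 (SE 0.13, 95% interval 0.44 to 1.09) was the largest of the 7 after CD83 and did not pass (adjusted p = 0.0812). It was 0.60 in replicate 1 alone, 1.21 once corrected for GC content and length (adjusted p = 0.0814) and 0.30 in TPM (adjusted p = 0.226). With replicates 2 and 3 only it was 0.84 and passed (adjusted p = 4.2e-05), in the fit in which 79.4% of all genes passed. CD47 kept its direction in all 22 alternatives, as did CD83, CD274 and PDCD1LG2.

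Of 10 other genes of the CD47 and phagocytosis axis, 6 were tested, 1 was called lower and 0 were called higher. The called gene was CD24, a glycosylated surface protein that signals to SIGLEC10 on phagocytes. It had 14.6, 16.1 and 14.0 FPKM in NC and 7.56, 7.37 and 8.58 FPKM in TNF-α, and every TNF-α library was below every NC library. The means were 14.9 ± 1.08 and 7.84 ± 0.648 FPKM, and the log2 fold change was -0.85 (SE 0.13, adjusted p = 0.0483, from 0.000111 to 0.353 over the alternatives), where 0.297% of all tested genes were called lower. The call was lost when any 1 library other than TNF-α replicate 1 was left out, and in that replicate alone the fold change was -0.89 (adjusted p = 0.00486). The most abundant gene of the axis was THBS1, a secreted CD47 ligand, with 460, 441 and 502 FPKM in NC and 340, 105 and 133 FPKM in TNF-α (-1.47, adjusted p = 0.195). In TNF-α replicate 1 alone the fold change of THBS1 was -0.45 and passed (adjusted p = 0.0337). SIRPA, the phagocyte receptor, lay between 0.436 and 0.982 FPKM and was not tested.

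PVR (CD155) is bound by the inhibitory receptor TIGIT and the activating receptor CD226 of T and natural killer cells. The gene (ENSG00000073008, chr19:44643798-44663583, plus strand) had 70.7, 69.4 and 78.6 FPKM in NC and 82.8, 96.4 and 90.03 FPKM in TNF-α, from 7693 to 9358 reads per library. The groups did not overlap but came within a few FPKM of each other. The means were 72.9 ± 5.00 and 89.7 ± 6.85 FPKM, and the log2 fold change of 0.30 (SE 0.15, 95% interval -0.06 to 0.65) did not pass (adjusted p = 0.200). It was 0.18 in replicate 1 alone and 0.35 with replicates 2 and 3 only (adjusted p = 0.00584, where 79.4% of all genes passed). It turned to -0.20 in TPM, -0.18 with quantile normalization and -0.04 with the GC and length correction. CEACAM19, on the same strand, shares 3.44% of the exonic length of PVR.

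Of 8 other genes of the PVR and nectin axis 3 were tested and none passed. NECTIN2 (CD112), which shares the receptor CD226 with PVR, was the most abundant and had 46.6, 43.0 and 48.7 FPKM in NC and 51.8, 119.4 and 107.6 FPKM in TNF-α (log2 fold change 0.91, adjusted p = 0.195). As with LGALS1, the high values were those of replicates 2 and 3, and in replicate 1 alone the fold change was 0.17 (adjusted p = 0.358). The receptors TIGIT, CD226 and CD96 had at most 4, 34 and 8 reads in any library.

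NT5E (CD73) converts extracellular AMP to adenosine, which dampens T cells. The gene (ENSG00000135318, chr6:85449584-85495791, plus strand) had 95.8, 99.1 and 95.5 FPKM in NC, from 15688, 14727 and 13901 reads, and 118.7, 83.1 and 83.3 FPKM in TNF-α, from 17291, 9766 and 9171 reads. Replicate 1 was above all NC libraries and replicates 2 and 3 were below all of them. The means were 96.8 ± 1.99 and 95.05 ± 20.5 FPKM, and the log2 fold change was -0.05 (SE 0.19, 95% interval -0.51 to 0.42, adjusted p = 0.857). That interval allows a change of moderate size either way, so that a constant level was not shown. The fold change also depended on the scaling, though it did not pass in these alternatives. It was -0.55 in TPM, -0.55 with quantile normalization, -0.32 in limma-voom and -0.09 with median centring. With the GC and length correction it was 0.06. The sign also changed with the libraries used. The fold change was 0.29 in replicate 1 alone. It was -0.22 with replicates 2 and 3 only (adjusted p = 0.0198, where 79.4% of all genes passed, 36.8% as lower).

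Of 14 other genes of the adenosine axis 4 were tested and none passed. ADORA2B, a low-affinity adenosine receptor, was the most abundant with 33.0, 35.1 and 35.1 FPKM in NC and 24.3, 35.5 and 31.5 FPKM in TNF-α (log2 fold change -0.19, adjusted p = 0.412). In TNF-α replicate 1, the lowest of the 6 libraries, the fold change was -0.48 and passed (adjusted p = 0.0196). ENTPD1 (CD39), which supplies AMP to NT5E, reached 0.647 to 0.974 FPKM and was not tested, and ADORA2A, the receptor of T cells, had at most 0.165 FPKM.

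**Figure D3:**
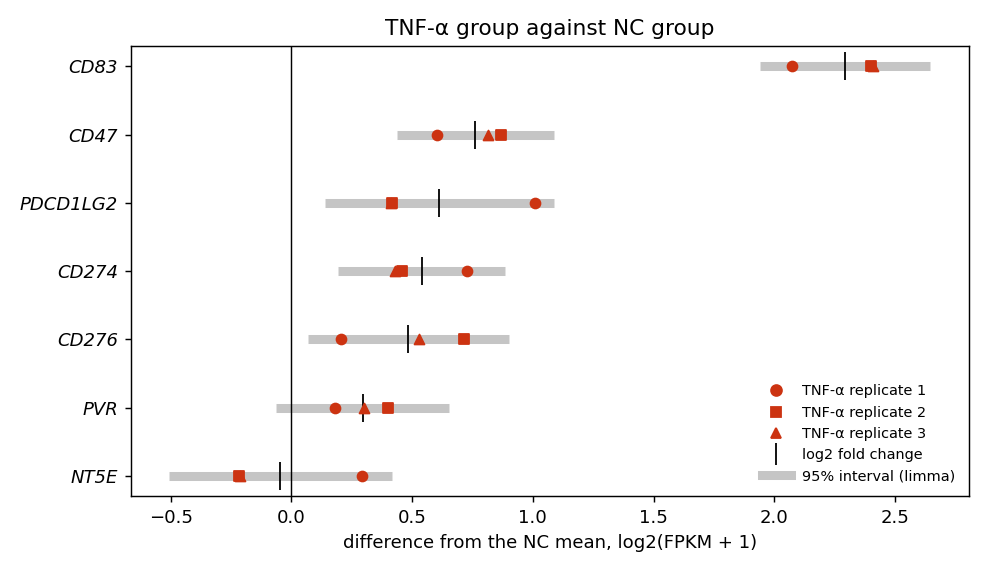
Difference of the TNF-α group from the NC mean in log2(FPKM + 1) for the 7 tested genes, with a red symbol for each TNF-α library, a tick for the log2 fold change and a grey bar for its 95% interval from limma. The bar of CD83 runs from 1.94 to 2.65, those of PVR and NT5E include 0, and the circle of replicate 1 is the highest symbol for CD274, PDCD1LG2 and NT5E and the lowest for CD83, CD47, CD276 and PVR.

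By level per length the order in NC was NT5E (96.8 FPKM), PVR (72.9), CD276 (22.2), CD274 (22.1), CD47 (10.8), PDCD1LG2 (7.93) and CD83 (2.86), with CD80, CD69 and ICOSLG near 0. Only CD276 and CD274 overlapped among neighbours of the 7. In TNF-α the order was NT5E (95.05 FPKM), PVR (89.7), CD274 (32.7), CD276 (31.7), CD47 (19.1), CD83 (18.03) and PDCD1LG2 (12.9). There NT5E and PVR overlapped, as did CD274 and CD276, CD47 and CD83, and CD83 and PDCD1LG2. CD83 had the lowest level of the 7 in every NC library. Its level was 0.399, 0.376 and 0.313 of that of PDCD1LG2 in the NC libraries and 0.900, 1.77 and 1.79 of it in the TNF-α libraries. The ratio of PVR to NT5E was 0.738, 0.700 and 0.824 in NC and 0.697, 1.16 and 1.08 in TNF-α, and replicate 1 stayed with the NC libraries.

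**Figure D4:**
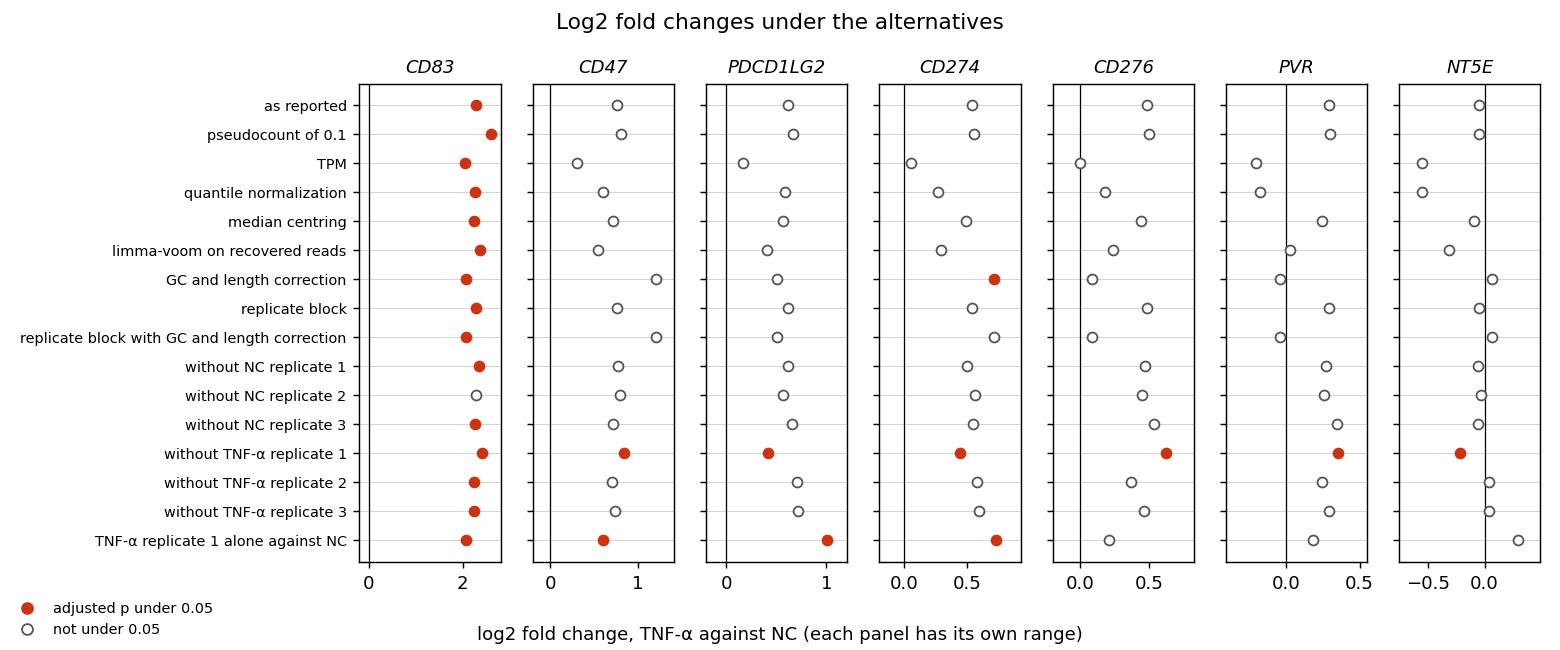
Log2 fold change of the 7 tested genes as reported and under 15 of the 22 alternatives, with filled symbols where the adjusted p was under 0.05 and a separate range for each panel. CD83 stays between 2.05 and 2.61, whereas PVR and NT5E lie on both sides of 0, and all 7 symbols are filled only without TNF-α replicate 1.

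Counting all 92 further genes of the 10 pathway lists, 37 were tested, 0 were called higher and 1 was called lower, beside 0.717% and 0.297% of all tested genes. Their median log2 fold change was 0.10, and 5 had an unadjusted p under 0.05 in each direction, beside 12.3% of all tested genes as higher and 11.9% as lower. In the remaining lists no gene passed. LGALS9, the galectin ligand of the inhibitory receptor HAVCR2, had 10.03, 8.99 and 8.95 FPKM in NC and 11.1, 28.0 and 24.7 FPKM in TNF-α (log2 fold change 1.01, adjusted p = 0.195). MICA, a stress-induced ligand of the NKG2D receptor, had 45.6, 41.4 and 43.4 FPKM in NC and 38.3, 79.3 and 78.2 FPKM in TNF-α (0.50, adjusted p = 0.240). BTN2A1, a butyrophilin sensed by gamma-delta T cells, lay between 31.5 and 38.0 FPKM (0.01, adjusted p = 0.970). For LGALS9 and MICA the high values were again those of TNF-α replicates 2 and 3, and in replicate 1 alone the fold changes were 0.23 and -0.18 (adjusted p = 0.220 and 0.289).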

How the data were processed

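RNA-seq of 6 U251 libraries was analysed. Libraries were assigned to groups from their titles. The authors deposited FPKM per gene for each library, with gene lengths. The submitters' processing notes name HISAT2 2.0.5, StringTie 1.3.3b, featureCounts 1.5.0, DESeq2, edgeR and GATK 3.7. Which of these made the table, and whether strand was used, are not given in the sources used here. The FPKM rest on a scaled library total, 0.693 to 0.959 of the reads in genes. All 58735 genes matched GENCODE 29 (GRCh38) in identifier, name, start, end and merged exon length. Whole reads were recovered from FPKM times length, with 100% of values within 0.01 of a whole read, so that read numbers are known. Limits of 3 reads cover counting error only. A further 6 columns of per-sample values were not used.

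Genes reaching 1 FPKM in 3 or more of the 6 libraries (12136) were tested as log2(FPKM + 1) with limma 3.58.1 in R 4.3.3 (eBayes with trend, two-sided, Benjamini-Hochberg over all genes tested, threshold 0.05). This scale understates changes of low genes. The script was tested on simulated data. Named genes were the 10 genes, and in each pathway list up to 5 genes past the threshold, the most abundant gene and direct receptors or partners. The 3 genes nearest in profile to a called gene and the expressed genes within 250 kb of the PD-1 ligand genes were added. Other names are marker genes and list members singled out for 0 or few reads after their values were seen. The genes, lists and motifs were chosen with earlier results of these data known. Alternatives were other pseudocounts, filters, scalings (TPM, quantile, median centring) and eBayes options, protein-coding genes, limma-voom on recovered reads, a GC and transcript length correction (natural splines with 5 degrees of freedom), the replicate block, and leaving out libraries. Motifs were searched on both strands in 250 upstream bases of RefSeq promoters. Similar transcripts were sought with blastn 2.17.0 at 95% identity. Tables used Python 3.11.15, pandas 2.3.3, numpy 2.4.6 and scipy 1.17.1, and plots matplotlib 3.10.9.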

Additional observations from a re-analysis of the deposited data

How the results depend on the processing

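Of the 22 alternatives, CD83 was the 1 checkpoint gene past the threshold in 18, and the count was 2 with the GC and length correction (CD83 and CD274), 4 in TNF-α replicate 1 alone against NC (CD83, CD274, PDCD1LG2 and CD47), and 0 to 7 with a library left out. It was 0 without NC replicate 2 and 7 without TNF-α replicate 1. Without TNF-α replicate 1, 79.4% of all genes passed, against 10 to 42 genes in the other fits with a library left out. With the GC and length correction 2.79% of all genes passed, 1.78% as higher. The count of 4 rests on a single TNF-α library assumed to vary like the NC libraries. The share of all genes that passed in that fit is given with CD83 above. Pathway genes past the threshold (1, CD24) fell to 0 with either lower FPKM filter, TPM, eBayes without trend or with robust, limma-voom, and the replicate block with or without the GC and length correction. In TNF-α replicate 1 alone the fold change of CD24 was -0.89. With a library left out, 0 to 27 of the 37 tested pathway genes passed. The 27 were those without TNF-α replicate 1, where 79.4% of all genes passed, so that this count is no result about the pathway genes. Directions turned for CD276 in TPM (-0.0015), for PVR in TPM (-0.20), with quantile normalization (-0.18) and with the GC and length correction with or without the block (-0.036), and for NT5E with that correction with or without the block (0.063), in TNF-α replicate 1 alone (0.29) and with a library left out (-0.215 to 0.039). The cause was not tested. The median of all tested genes was -0.42 in TPM and -0.22 in limma-voom, against 0.04 as reported. Relative to that median every tested member except NT5E stayed above 0 in both.

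The replicate number as a block left CD83 past the threshold (2.29, adjusted p = 0.0408) with 24 genes (0.198%) called instead of 123. The correlations of the deviations of same-numbered libraries were -0.014, -0.178 and 0.124. Within TNF-α the deviations mostly set replicate 1 against replicates 2 and 3, so that these values cannot show whether same-numbered libraries were paired. The call that CD274 gained from correcting for GC and length (adjusted p = 0.0108) was lost when the block was added (0.116). CD69, CD80 and ICOSLG were tested only with the filter of FPKM above 0 in at least 1 library, and none passed.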
